A study of Homo sapiens with 6 samples.

Results

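PC9-AMG cells were compared with parental PC9 cells, using 4 of the 6 gene-expression libraries of the series: 2 of PC9 and 2 of PC9-AMG, every one from cells cultured in MGS. PC9, an established line from a human lung adenocarcinoma, carries an EGFR mutation that keeps the receptor active, and PC9-AMG is named as its derivative. The remaining 2 libraries are of PC9-BrM4, another derivative, and enter only the estimate of the spread and a short comparison at the end. The labels expand none of AMG, BrM4 and MGS, do not say how either derivative was made or whether it is 1 clone, and carry the word mix in the library names without explaining it. From what is known of this work, MGS cultures put the cancer cells on a soft gel together with glia of mice. All groups share that culture, and no library of cells grown without it was analysed here. Since no label says that libraries 1 and 2 came from separate cultures, the p-values speak only to the spread seen between libraries, which may be technical.

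Cancer cells that colonise a new tissue have to match their protein synthesis, nutrient use and adhesion to what that tissue offers. A shortage of amino acids raises translation of the transcription factor ATF4, which turns on genes for amino acid synthesis, uptake and tRNA charging. MYC drives ribosome production, and the oxygen-sensing factor HIF1A drives genes for blood vessel growth, collagen processing and glucose use when oxygen is low. Axon guidance molecules, which steer growing nerve fibres during development, are also made by many carcinoma cells, where they act on adhesion and movement.

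Levels are given in TPM (a length-normalised share of the transcripts in a library), always in the order library 1, library 2. Differences are on the log2(TPM + 1) scale, PC9-AMG minus PC9, with their standard error (SE), n = 2 a group, and understate the change of genes near 1 TPM. Of 26475 genes in the table, 14166 had at least 1 TPM in at least 2 of the 4 libraries and were tested with limma. XAGE2, MAGEA4, MAGEC1, BMP7 and CPVL passed this filter through PC9-AMG alone and ZEB1 and SMAD6 through PC9 alone. SERPING1, C6orf223, MAGEC2 and MSH5 had only 1 PC9 library at 1 TPM or more. Genes that passed through 1 group alone had to differ, and these others needed PC9-AMG to pass. The levels of all of them, where given, are a description and their calls are no support. This holds also where a gene list below counts them. A gene is said to have risen or fallen where its Benjamini-Hochberg adjusted p was under 0.05. By this rule 1229 genes were called, which is 8.68% of those tested: 597 rose (4.21%) and 632 fell (4.46%). Of these, 174 differed by at least 1, 93 higher and 81 lower, and 3692 genes had an unadjusted p under 0.05. All 1229 called genes had no overlap between the 4 libraries, but so had 60.4% of all tested genes, 25.0% with PC9-AMG higher and 35.5% with it lower. The median difference of all tested genes was -0.05, with quartiles at -0.25 and 0.15. Centring each library on its median moved the split of the called genes from 48.6% to 61.7% higher, and using FPKM moved it to 61.2%.

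With 2 libraries a group the calls depended on single libraries. The count of called genes was 240 without PC9 library 1, 237 without PC9 library 2, 524 without PC9-AMG library 1 and 256 without PC9-AMG library 2. In each of those 4 fits 112 genes were called as well, 58 higher and 54 lower. A call is said to have held where it was made in all 4, and a call that ended is given with the library concerned. Some of the gene lists counted below had 0 calls in a direction. Their members at an unadjusted p under 0.05 by limma in that direction also numbered 0, with some exceptions. Lower were 3 genes of the ERBB receptor list, 2 of the unfolded protein response and 6 interferon-stimulated genes. Higher were 1 heat shock gene, 1 HIF factor and 3 genes of antigen presentation. Also higher were 2 genes each of the tricarboxylic acid cycle, axon guidance, keratins and contraction.

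The difference also moved with transcript length. Across the 13330 tested genes with a known length, the Spearman correlation of the difference with the length of the longest transcript was -0.245, a description across genes, which are not independent replicates. Between the 2 PC9-AMG libraries it was 0.065 and between the 2 PC9 libraries 0.03. Of 10 length classes of near equal size, the class with the shortest transcripts (median 738 bases) had a median difference of 0.07, with 122 rises and 39 falls, while the class with the longest (median 9124 bases) had a median of -0.18, with 9 rises and 57 falls. Against the PC9 mean, medians were 0.09 and 0.11 in the 2 PC9-AMG libraries for the shortest class and -0.14 and -0.21 for the longest. In the 2 PC9-BrM4 libraries they were -0.04 and 0.03 for the shortest class and 0.25 and -0.09 for the longest. Libraries of 1 line thus also ran in opposite directions with length. For several lists the counts are also given after a smooth trend with length was subtracted from the differences, a step that left the genes without a known length as they were, and after the centring of libraries. No value for RNA quality is given in the sources used here, and a technical origin of the trend was not tested.

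**Figure D1:**
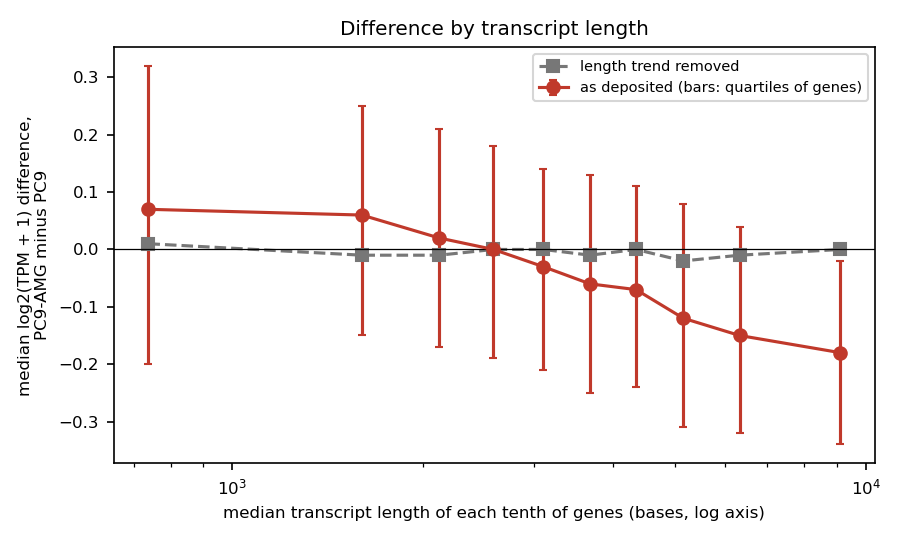
Median log2(TPM + 1) difference, PC9-AMG minus PC9 (vertical axis), of each of 10 classes of tested genes by transcript length (horizontal axis, bases, log scale). Circles are the deposited values with bars for the quartiles of genes, squares the values after the length trend was removed. The medians run from 0.07 in the shortest class to -0.18 in the longest.

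The libraries had the genes of an epithelial cancer line. EPCAM, an adhesion protein of epithelial cells, was at 705 and 698 TPM in PC9 and 634 and 741 TPM in PC9-AMG, and KRT18, a keratin of simple epithelia, at 2750 and 2710 TPM and at 2750 and 2670 TPM. The defining genes of lung alveolar and club cells were absent or nearly so: SFTPA1, SFTPB, SFTPC and SCGB1A1 were listed at 0 in all 4 libraries, and the lung lineage factor NKX2-1 was at 0.0979 and 0 TPM in PC9 and 0.283 and 0 TPM in PC9-AMG. Human markers of other cell types were present in part. Among 12 astrocyte markers, GFAP and S100B were listed at 0 throughout, and the summed level of the list, 237 and 244 TPM in PC9 and 268 and 256 TPM in PC9-AMG, was led by ALDOC at 103 and 112 TPM and at 109 and 105 TPM. Of 12 microglia markers 7 were listed at 0 in all 4 libraries, among them AIF1, TYROBP and P2RY12. CD68, which other cells make as well, was at 222 and 215 TPM and at 230 and 211 TPM and made up most of the list's sum of 233 and 226 TPM in PC9 and 246 and 225 TPM in PC9-AMG. ITGAM, an integrin of myeloid cells, was at 3.4 and 3.36 TPM and at 6.96 and 6.19 TPM and was called higher (0.79, adjusted p = 0.0302), but not without any 1 of the 4 libraries. Of 10 neuron markers 6 were listed at 0 and the sum was 142 and 148 TPM and 144 and 127 TPM, mostly TUBB3, while 5 of 10 oligodendrocyte markers were listed at 0 and the sum was 52.6 and 53.4 TPM and 49.7 and 45.2 TPM. Of 12 markers of fibroblasts, pericytes and endothelium 4 were listed at 0, and the sum was 14.8 and 15.2 TPM and 19.6 and 12.6 TPM. The part of such cells in the results was not tested. Mouse genes were not analysed here, and whether reads from mouse glia were counted for human genes was not tested. A bulk library cannot tell fewer cells of a type from less RNA per cell.

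The largest rises included genes of the germ line, of the amino-acid stress response, of complement and of hormone signalling, and the largest falls included adhesion genes of the CEACAM family and growth and matrix factors. NUPR1, a small chromatin protein induced by many stresses, was at 2.19 and 2.37 TPM in PC9 and 17.8 and 14.1 TPM in PC9-AMG (difference 2.36, SE 0.17, adjusted p = 0.000159). KISS1, which encodes the peptide kisspeptin and is known as a metastasis suppressor, was at 5.63 and 9.65 TPM in PC9 and 36.7 and 37.1 TPM in PC9-AMG (2.17, SE 0.20, adjusted p = 0.000609). In both genes the lower PC9-AMG library stood well above the higher PC9 library. EDN2, a vasoactive peptide, was at 4.62 and 5.31 TPM and at 17.7 and 15.7 TPM (1.57, SE 0.15, adjusted p = 0.000609). FHL1, a LIM-domain protein of muscle and of the cytoskeleton, was at 1.85 and 2.21 TPM and at 9.8 and 10.9 TPM (1.90, SE 0.17). GGT6, of the gamma-glutamyltransferase family, was at 1.91 and 2.61 TPM and at 9.37 and 8.56 TPM (1.62, SE 0.16). C6orf223, a gene of little known function, had a difference of 1.77 from a mean of 1.16 TPM.

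Among the falls, CEACAM5, the carcinoembryonic antigen, went from 42.0 and 37.6 TPM in PC9 to 5.59 and 5.83 TPM in PC9-AMG (difference -2.60, SE 0.17, adjusted p = 9.42e-05). Its neighbour CEACAM6 on chromosome 19 went from 552 and 512 TPM to 189 and 209 TPM (-1.41, SE 0.13, adjusted p = 0.000609). CEACAM proteins link cells to each other and to the matrix. EDIL3, a secreted integrin ligand, was at 10.1 and 10.7 TPM in PC9 and 1.9 and 1.81 TPM in PC9-AMG (-2.0, SE 0.19). TNFAIP2, induced by tumour necrosis factor, was at 208 and 207 TPM and at 75.7 and 67.3 TPM (-1.53, SE 0.10, adjusted p = 9.42e-05). A pair of detoxification enzymes fell with them, the amine oxidase AOC1 by 1.49 from a mean of 35.2 TPM and the carboxylesterase CES1 by 1.22 from a mean of 88.3 TPM. Of the 15 largest rises 13 held without each library in turn, all but MSH5 and TNXB, and of the 15 largest falls 10 held, all but AADAC, BMF, LGR6, SPEF2 and TBC1D3. The rises that held include XAGE2, MAGEA4, SERPING1 and C6orf223, whose calls are no support because of the filter, as stated above. MSH5, TNXB and TBC1D3 share sequence with overlapping genes or near-identical copies, and their values are uncertain.

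**Figure D2:**
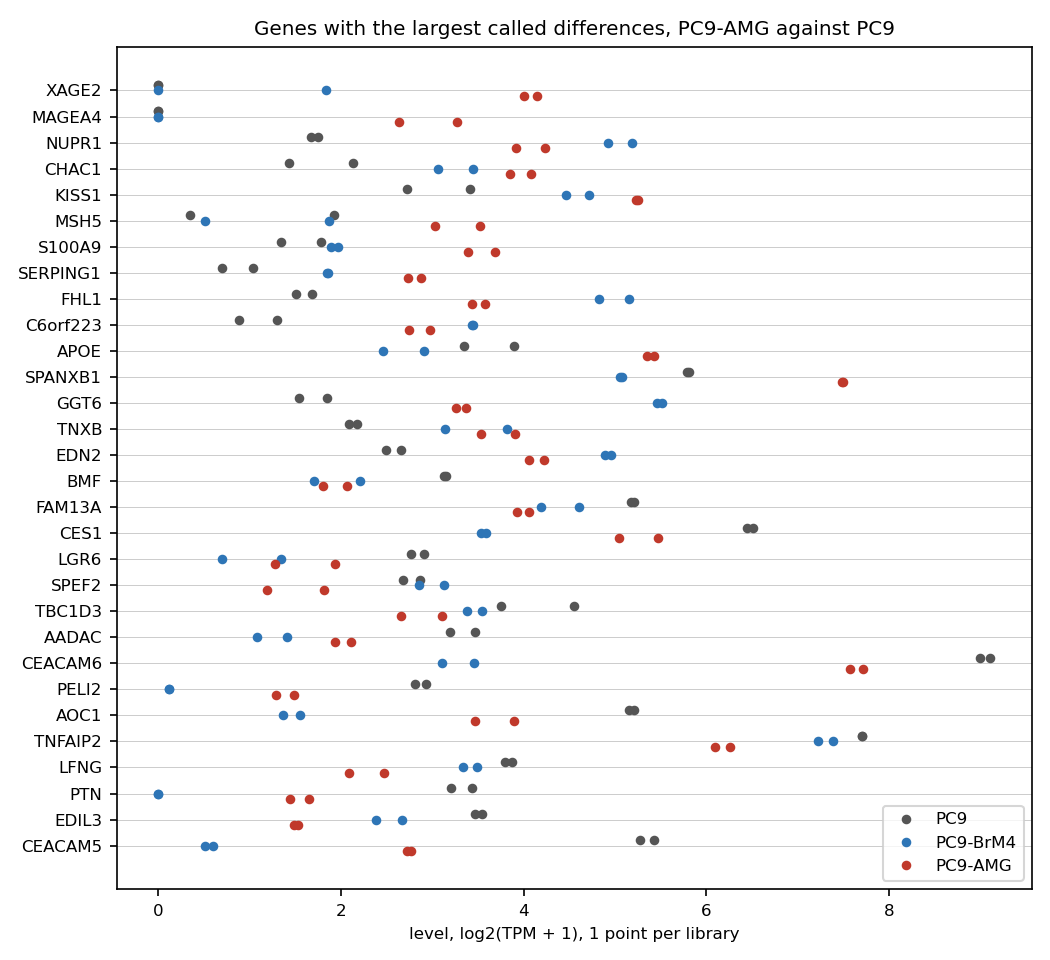
Level of the 15 genes with the largest called rises and the 15 with the largest called falls in PC9-AMG against PC9, as log2(TPM + 1) (horizontal axis), with 1 point per library for PC9, PC9-BrM4 and PC9-AMG. The PC9 and PC9-AMG points do not overlap in any of these genes, and XAGE2 and MAGEA4 are at 0 in both PC9 libraries.

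Genes of the amino-acid stress response rose in part. Of 16 tested regulators and stress effectors of the ATF4 pathway 6 rose and 2 fell (median difference 0.11), and of 12 enzymes of amino acid and folate synthesis 4 rose and 0 fell (median 0.32). Among 19 cytosolic aminoacyl-tRNA synthetases, which load tRNAs with amino acids, 4 rose and 0 fell (median 0.17), and among 15 amino acid transporters 2 rose and 1 fell (median 0.14). With the length trend removed the rises among regulators numbered 6 and among enzymes 6. These counts are not independent evidence of a direction, since earlier results of these data had shown ATF4 targets higher, and hypoxia targets, laminins with integrins and NRF2 targets lower.

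CHAC1, an ATF4 target that degrades glutathione, was at 1.7 and 3.39 TPM in PC9 and 15.9 and 13.4 TPM in PC9-AMG (difference 2.18, SE 0.24, adjusted p = 0.00116). SESN2, which restrains mTORC1 when leucine is scarce, was at 8.06 and 7.67 TPM and at 19.4 and 16.6 TPM (1.10, SE 0.15, adjusted p = 0.00311). DDIT3, the stress factor CHOP, was at 18.6 and 14.7 TPM and at 33.4 and 44.5 TPM (1.17, SE 0.17, adjusted p = 0.00486). The 2 groups did not overlap in any of these genes. TRIB3, a feedback inhibitor of ATF4, rose by 0.65, while DDIT4, another mTORC1 inhibitor, fell by 0.47 from a mean of 609 TPM. The messenger of ATF4 itself, which is regulated mainly by translation, was at 458 and 487 TPM in PC9 and 517 and 505 TPM in PC9-AMG and was not called (0.11, adjusted p = 0.390).

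Among the enzymes, asparagine synthetase ASNS was at 64.5 and 71.2 TPM in PC9 and 97.2 and 110 TPM in PC9-AMG (difference 0.60, SE 0.11). PSAT1 of serine synthesis rose by 0.59, CTH of cysteine synthesis by 0.91 and PYCR1 of proline synthesis by 0.48. SLC1A5, a glutamine transporter, was at 89.5 and 94.6 TPM and at 163 and 147 TPM (0.74, SE 0.10, adjusted p = 0.00264). SLC3A2, the shared heavy chain of several amino acid exchangers, rose by 0.57, and the glutamate transporter SLC1A1 fell by 1.14. Among the synthetases GARS was at 114 and 110 TPM and at 181 and 184 TPM (0.70, SE 0.09, adjusted p = 0.00264), and AARS rose by 0.41. Outside this pathway, 1 of 23 genes of the unfolded protein response and of endoplasmic reticulum chaperones rose, HERPUD1 by 0.63, and 0 fell. Of 14 cytosolic heat shock genes 3 fell and 0 rose, and 1 fell with libraries centred. The chaperone HSP90AA1 was at 2530 and 2450 TPM in PC9 and 1520 and 1700 TPM in PC9-AMG (-0.63, SE 0.07, adjusted p = 0.00144). The other 2 falls were the paired genes HSPA1A (-0.44) and HSPA1B (-0.43). Neither was called without PC9 library 1, PC9 library 2 or PC9-AMG library 2. The calls of CHAC1, SESN2, SLC1A5, GARS and HSP90AA1 held. Other calls ended without 1 library (adjusted p between 0.0503 and 0.285): DDIT3 without PC9-AMG library 2, SLC3A2 without PC9 library 1, TRIB3 and DDIT4 without either PC9 library, CTH without PC9 library 2 or PC9-AMG library 2, SLC1A1 without PC9 library 2 or PC9-AMG library 1, ASNS, PSAT1 and HERPUD1 without any library but PC9-AMG library 1, PYCR1 without any but PC9-AMG library 2, and AARS without any of the 4.

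The promoters of CHAC1 and ASNS are shown because they hold a match to the element that ATF4 binds with its C/EBP partners, written TGATGNAAN, searched on both strands in the 250 bases before the start of the gene (RefSeq, GRCh38.p14). CHAC1 (chr15:40953221-40953470, plus strand) has the match on the opposite strand, its first base 210 bases before the start, and ASNS (chr7:97872409-97872658, minus strand) has it 68 bases before the start. Capitals mark the match.
CHAC1: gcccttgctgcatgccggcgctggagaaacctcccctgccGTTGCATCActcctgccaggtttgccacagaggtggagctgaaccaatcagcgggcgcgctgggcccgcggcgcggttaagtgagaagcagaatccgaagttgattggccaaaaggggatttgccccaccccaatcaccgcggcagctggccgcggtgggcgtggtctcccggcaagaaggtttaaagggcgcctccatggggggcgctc
ASNS: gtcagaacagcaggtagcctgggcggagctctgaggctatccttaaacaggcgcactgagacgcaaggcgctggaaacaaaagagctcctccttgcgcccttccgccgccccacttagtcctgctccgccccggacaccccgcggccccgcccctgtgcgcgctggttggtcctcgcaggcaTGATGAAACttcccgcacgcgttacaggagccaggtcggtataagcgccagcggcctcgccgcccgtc
The element was found in 2 of the 15 promoters of tested ATF4 regulators in the table and in 2 of the 8 of the enzymes. Among called members it was in 1 of 7 and 1 of 3, the promoters of CHAC1 and ASNS. It was in 3.18% of all 27305 promoters and 1.28% of those of tested genes. A match is a description of the letters and not a binding site, and no match in the other promoters says only that these letters are not in this window.

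Genes of ribosome production rose together. Of 24 tested genes of ribosome biogenesis and MYC targets 15 rose and 0 fell, with a median difference of 0.44 against -0.05 for all tested genes. With the length trend removed 16 rose and the median was 0.45. POLR1C, a subunit of RNA polymerases I and III, was at 21.7 and 17.4 TPM in PC9 and 39.1 and 44.6 TPM in PC9-AMG (1.07, SE 0.14, adjusted p = 0.00264). ODC1, the first enzyme of polyamine synthesis and a MYC target, was at 57.2 and 52.4 TPM and at 100 and 110 TPM (0.93, SE 0.10, adjusted p = 0.00116). NOP16, a nucleolar protein, was at 33.5 and 33.6 TPM and at 58.8 and 59.9 TPM (0.81, SE 0.11, adjusted p = 0.00297). The calls of these 3 genes held. BOP1, needed for the large ribosomal subunit, rose by 0.61 and NCL, the abundant nucleolar protein nucleolin, by 0.35 from a mean of 285 TPM. MYC itself was at 77.9 and 75.3 TPM in PC9 and 109 and 95.6 TPM in PC9-AMG (0.41, SE 0.10, adjusted p = 0.0371). The rises in the list numbered 3 without PC9 library 1, 3 without PC9 library 2, 4 without PC9-AMG library 1 and 6 without PC9-AMG library 2. Of 44 tested genes of cytosolic ribosomal proteins 2 rose and 0 fell (median 0.11).

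Some genes of the cell cycle and of protein breakdown rose, in smaller numbers. Of 24 genes of S phase and DNA replication 3 rose and 0 fell (median 0.28), and of 24 of mitosis 4 rose and 0 fell (median 0.15). CCNE1, the cyclin that opens S phase, was at 8.85 and 7.46 TPM in PC9 and 16.4 and 15.1 TPM in PC9-AMG (0.87, SE 0.15, adjusted p = 0.0102). The flap nuclease FEN1 rose by 0.69 and PTTG1, which holds back chromosome separation, by 0.56. CDKN1B, the cyclin-dependent kinase inhibitor p27, was at 137 and 133 TPM and at 81.0 and 90.3 TPM (-0.65, SE 0.10, adjusted p = 0.00581), while CDKN1A, the inhibitor p21 and a p53 target, was at 28.0 and 26.3 TPM and at 37.1 and 29.8 TPM and was not called (0.29, adjusted p = 0.214). Of 30 proteasome subunits 4 rose and 0 fell (median 0.21), PSMB2 by 0.53. In all 3 lists most rises were no longer called without PC9 library 1, PC9 library 2 or PC9-AMG library 2, and fewer were called without PC9-AMG library 1. Of the genes named here and with ribosome production, MYC, BOP1 and NCL were not called without any of the 4 libraries, CCNE1 without any but PC9 library 1, FEN1 without any but PC9-AMG library 1, PSMB2 without either PC9 library, PTTG1 without PC9 library 2 or PC9-AMG library 2, and CDKN1B without PC9 library 1 (adjusted p between 0.0503 and 0.282).

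Nuclear genes of the mitochondrial respiratory chain and of mitochondrial ribosomes rose. Of 45 tested subunits of the chain, which carries electrons to oxygen and drives ATP synthesis, 12 rose and 0 fell (median 0.24). Of 30 mitochondrial ribosomal proteins, which make the chain's mitochondrially encoded subunits, 7 rose and 0 fell (median 0.20). With the length trend removed the rises were 12 and 5 and the medians 0.20 and 0.17, with lengths known for 38 of the 45 chain genes and the values of the others kept. ATP5G1, which encodes the ring subunit of ATP synthase, was at 67.0 and 71.9 TPM in PC9 and 146 and 125 TPM in PC9-AMG (0.95, SE 0.11, adjusted p = 0.00125). MRPS15, a protein of the small mitochondrial ribosomal subunit, was at 253 and 244 TPM and at 380 and 386 TPM (0.62, SE 0.08, adjusted p = 0.00274). In both, the 2 PC9-AMG libraries lay above the 2 PC9 libraries. Smaller rises were seen in UQCRFS1 of complex III (0.61), NDUFS5 of complex I (0.52), COX8A of complex IV (0.51), MRPL12 (0.70) and MRPS12 (0.71). Among 21 tested genes of the tricarboxylic acid cycle 0 rose and 2 fell, DLST from 275 TPM in both PC9 libraries to 185 and 171 TPM (-0.62, SE 0.09, adjusted p = 0.00552) and IDH2 by 0.42. The rises in the chain numbered 2, 2, 9 and 2 and those in mitochondrial ribosomes 2, 3, 3 and 1 without PC9 library 1, PC9 library 2, PC9-AMG library 1 and PC9-AMG library 2. The calls of ATP5G1, MRPS15 and DLST held. Those of COX8A and IDH2 ended without any library but PC9-AMG library 1, MRPS12 without any but PC9 library 2, UQCRFS1 without either PC9 library, NDUFS5 without PC9 library 1 or PC9-AMG library 2, and MRPL12 without PC9-AMG library 2 (adjusted p between 0.0502 and 0.292).

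**Figure D3:**
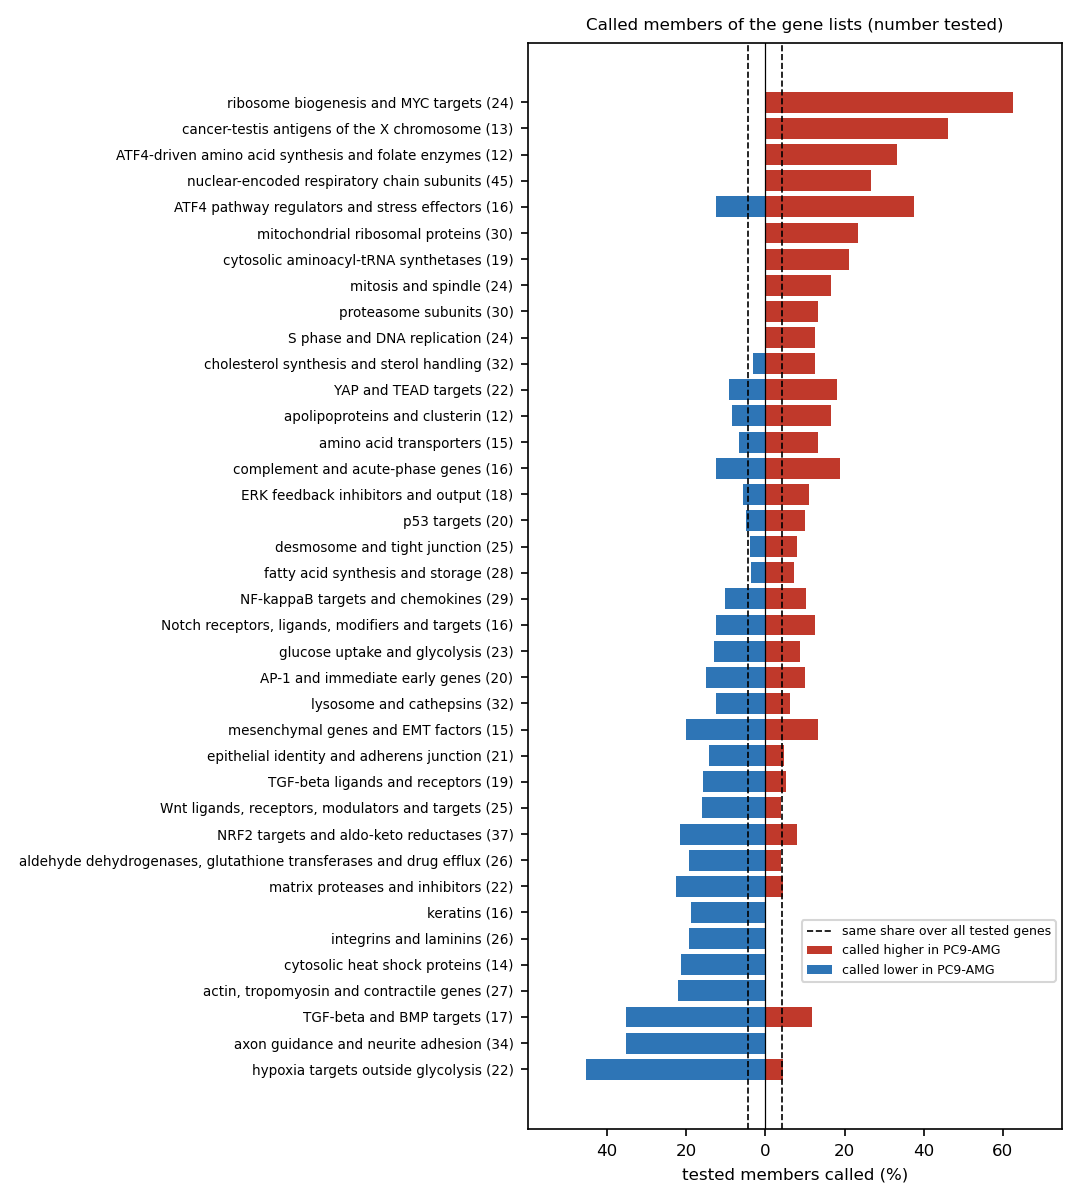
Share of the tested members of each gene list that rose (right of 0) or fell (left of 0) in PC9-AMG, in percent, for the lists with at least 10 tested members and at least 3 called. Dashed lines mark the same shares over all tested genes, 4.21% and 4.46%. Ribosome biogenesis stands at the top with rises only, and hypoxia targets and axon guidance at the bottom with nearly all calls as falls.

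Targets of hypoxia signalling fell. Of 22 tested targets outside glycolysis 10 fell and 1 rose (median -0.38), and the same numbers and a median of -0.35 were obtained with the length trend removed, while 7 fell and 1 rose with libraries centred. PLOD2, a lysyl hydroxylase that prepares collagen for crosslinking, was at 120 and 111 TPM in PC9 and 52.8 and 71.2 TPM in PC9-AMG (-0.90, SE 0.15, adjusted p = 0.00756). LOX, the oxidase that crosslinks collagen, was at 12.7 and 12.8 TPM and at 6.0 and 6.21 TPM (-0.95, SE 0.16, adjusted p = 0.00796). VEGFA, which stimulates blood vessel growth, was at 185 and 196 TPM and at 133 and 121 TPM (-0.58, SE 0.10, adjusted p = 0.00848). The groups did not overlap in any of these genes. MXI1, a MYC antagonist, fell by 0.61. HIF1A was at 77.2 and 79.4 TPM and at 56.4 and 64.9 TPM and was not called (-0.37, adjusted p = 0.107). Its oxygen sensors EGLN1 and EGLN3 fell by 0.60 and 0.36, the 2 falls among 10 tested HIF factors and sensors, of which 0 rose.

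Called genes of glucose use moved in both directions, though most differences were negative. Of 23 tested genes of glucose uptake and glycolysis 3 fell and 2 rose (median -0.16), with 20 differences below 0 and 3 above. The regulators of glycolytic flux fell: PFKFB3 was at 72.2 and 75.4 TPM in PC9 and 37.5 and 33.7 TPM in PC9-AMG (-1.03, SE 0.12, adjusted p = 0.00144), and PFKFB4 fell by 0.67. The 2 rises were transporters. SLC2A3, a high-affinity glucose carrier best known from neurons, was at 82.8 and 81.6 TPM and at 134 and 135 TPM (0.70, SE 0.10, adjusted p = 0.00326). The lactate carrier SLC16A1 rose by 0.74. The carriers SLC2A1 and SLC16A3 of the same list were not called. The falls among hypoxia targets numbered 1 without PC9 library 1, 1 without PC9 library 2, 4 without PC9-AMG library 1 and 3 without PC9-AMG library 2. The calls of PLOD2, PFKFB3 and SLC2A3 held. That of EGLN1 ended without any of the 4 libraries, those of LOX, VEGFA, PFKFB4 and SLC16A1 without any but PC9-AMG library 1, EGLN3 without any but PC9-AMG library 2, and MXI1 without either PC9 library (adjusted p between 0.0517 and 0.277).

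The promoters of LOX and PLOD2 are shown because they hold several copies of ACGTG, the core that HIF factors bind, searched on both strands in the same window. LOX (chr5:122078260-122078509, minus strand) has matches that begin 185, 116, 98 and 42 bases before the start, and PLOD2 (chr3:146161185-146161434, minus strand) 200 and 146 bases before it. Capitals mark each match, written CACGT where it lies on the opposite strand.
LOX: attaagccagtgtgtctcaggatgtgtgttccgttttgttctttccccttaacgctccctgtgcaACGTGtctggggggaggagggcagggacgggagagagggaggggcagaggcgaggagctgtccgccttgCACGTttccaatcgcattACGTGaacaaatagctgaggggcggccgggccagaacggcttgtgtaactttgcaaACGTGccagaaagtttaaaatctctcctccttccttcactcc
PLOD2: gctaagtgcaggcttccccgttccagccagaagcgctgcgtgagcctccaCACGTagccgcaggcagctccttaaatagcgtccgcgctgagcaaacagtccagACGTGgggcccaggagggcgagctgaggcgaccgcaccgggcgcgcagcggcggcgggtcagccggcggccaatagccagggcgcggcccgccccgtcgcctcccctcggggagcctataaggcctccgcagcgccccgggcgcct
ACGTG was found in 13 of the 18 promoters of tested hypoxia targets in the table (72.2%) and in 6 of the 9 of called ones. It was in 18.7% of all promoters and 23.3% of those of tested genes. The other form, GCGTG, was in 10 of the 18 (55.6%) and 5 of the 9. That lies nearer to its share of 44.9% in promoters of tested genes. The targets were listed for their known response to HIF, so these shares describe the list and not the change in PC9-AMG.

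**Figure D4:**
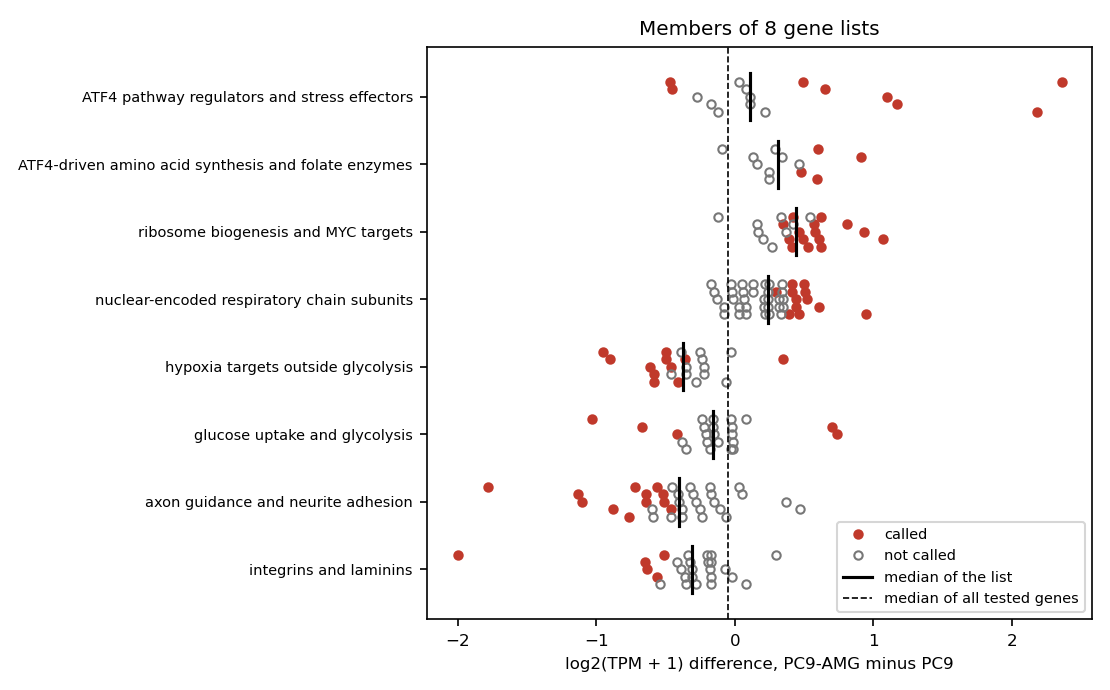
Log2(TPM + 1) difference, PC9-AMG minus PC9 (horizontal axis), of each tested member of 8 gene lists, called members filled and others open, with a bar at the median of each list and a dashed line at the median of all tested genes (-0.05). The median is 0.44 in ribosome biogenesis and 0.24 in the respiratory chain, and -0.38 in hypoxia targets and -0.40 in axon guidance.

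Genes of axon guidance and neurite adhesion fell. Of 34 tested 12 fell and 0 rose, with a median difference of -0.40. These genes are long, with a median transcript length of 5429 bases against 3385 for all tested genes. With the length trend removed 12 fell and 2 rose, and the median was -0.31, and with libraries centred 10 fell and 1 rose. PTN, the secreted neurite growth factor pleiotrophin, was at 8.23 and 9.85 TPM in PC9 and 1.71 and 2.13 TPM in PC9-AMG (-1.78, SE 0.22, adjusted p = 0.0019). NTN4, a laminin-related netrin of basement membranes, was at 49.1 and 47.0 TPM and at 19.1 and 24.1 TPM (-1.13, SE 0.16, adjusted p = 0.00406). NRP2, a receptor for semaphorins and for vascular growth factors, was at 20.9 and 22.6 TPM and at 10.1 and 9.2 TPM (-1.10, SE 0.15, adjusted p = 0.0033). The calls of these 3 held. The cell adhesion molecule ALCAM fell by 0.88 from a mean of 212 TPM, the semaphorin SEMA3B by 0.72 and MDK, which encodes midkine, a relative of pleiotrophin, by 0.51. The falls numbered 4 without PC9 library 1, 4 without PC9 library 2, 7 without PC9-AMG library 1 and 4 without PC9-AMG library 2.

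Genes of matrix adhesion fell in part. Of 26 integrins and laminins and their ligands 5 fell and 0 rose (median -0.31, and -0.16 with the length trend removed, when 5 fell, and 4 with libraries centred). Without PC9 library 1, PC9 library 2, PC9-AMG library 1 and PC9-AMG library 2 these falls numbered 1, 1, 7 and 1. EDIL3, with its difference of -2.0, had the largest of these falls. COL17A1, a collagen of hemidesmosomes, was at 90.5 and 93.3 TPM in PC9 and 65.0 and 52.2 TPM in PC9-AMG (-0.65, SE 0.13), and the laminin chain LAMA3 fell by 0.63. Of 22 matrix proteases and inhibitors 5 fell and 1 rose (median -0.27), and the falls numbered 0, 1, 4 and 3 without the libraries in the same order. TIMP3, an inhibitor of metalloproteinases, was at 54.7 and 53.2 TPM and at 33.3 and 33.6 TPM (-0.67, SE 0.10, adjusted p = 0.00566). The plasminogen activator PLAT fell by 0.59, its inhibitor SERPINE2 by 0.56 and the membrane metalloproteinase MMP14 by 0.64. Calls among these genes and those of axon guidance that ended were those of MDK and LAMA3 without any of the 4 libraries, SEMA3B, COL17A1 and MMP14 without any but PC9-AMG library 1, TIMP3 and PLAT without either PC9 library, SERPINE2 without PC9 library 1 and ALCAM without PC9-AMG library 1 (adjusted p between 0.0518 and 0.233).

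Mesenchymal and epithelial genes changed in both directions. Of 15 tested mesenchymal genes and factors of epithelial-mesenchymal transition 3 fell and 2 rose (median -0.35), and of 21 epithelial identity genes 3 fell and 1 rose (median -0.19). With libraries centred 3 mesenchymal genes fell and 3 rose. VIM, the mesenchymal filament vimentin, was at 163 and 162 TPM in PC9 and 90.1 and 88.7 TPM in PC9-AMG (-0.86, SE 0.09, adjusted p = 0.000816). SNAI2, a repressor of epithelial genes, was at 9.93 and 7.71 TPM and at 3.64 and 3.24 TPM (-1.14, SE 0.20, adjusted p = 0.00961), and ZEB1, another such repressor, was at 2.7 and 2.13 TPM and at 0.555 and 0.846 TPM (-1.01). A pair of genes often listed as mesenchymal rose: S100A4, a calcium-binding protein of motile cells, was at 514 and 489 TPM and at 814 and 819 TPM (0.70, SE 0.08, adjusted p = 0.00144), and SPARC rose by 0.50. On the epithelial side ELF3, an epithelial transcription factor, was at 317 and 314 TPM and at 174 and 159 TPM (-0.92, SE 0.09, adjusted p = 0.000609), and OVOL2, which represses mesenchymal genes, fell by 0.97. E-cadherin, CDH1, was at 107 and 109 TPM and at 84.5 and 75.6 TPM and was not called (-0.43, adjusted p = 0.0580). Of 16 keratins 3 fell and 0 rose, KRT19 by 0.36 from a mean of 5410 TPM. The falls among keratins numbered 0 with libraries centred and 0, 0, 1 and 0 without PC9 library 1, PC9 library 2, PC9-AMG library 1 and PC9-AMG library 2, and the surface mucin MUC1 fell by 0.61.

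Of 27 genes of actin, tropomyosin and contraction 6 fell and 0 rose (median -0.17). The falls numbered 1 with libraries centred, 8 with the length trend removed, when 1 rose, and 1, 1, 3 and 1 without PC9 library 1, PC9 library 2, PC9-AMG library 1 and PC9-AMG library 2. TPM4, a tropomyosin that stabilises actin filaments, was at 763 and 765 TPM in PC9 and 504 and 509 TPM in PC9-AMG (-0.59, SE 0.09, adjusted p = 0.00486). The actin gene ACTG1 fell by 0.28 from a mean of 7020 TPM, and CAV1, the coat protein of caveolae, by 0.47. The calls of VIM, S100A4, ELF3 and TPM4 held. Among the identity and contractile genes named, the calls of ZEB1, SPARC and ACTG1 ended without any of the 4 libraries, KRT19 and MUC1 without any but PC9-AMG library 1, CAV1 without any but PC9-AMG library 2, OVOL2 without any but PC9 library 2, and SNAI2 without PC9 library 1 or PC9-AMG library 2 (adjusted p between 0.0560 and 0.297).

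Secreted ligands and their targets changed in several signalling pathways. Of 19 ligands and receptors of the TGF-beta family 3 fell and 1 rose, and of 17 targets 6 fell and 2 rose (median -0.39). The rise in the first list is BMP7. The falling targets include SMAD6, at 1.55 and 2.15 TPM in PC9 and 0.608 and 0.414 TPM in PC9-AMG. Both genes passed the filter through 1 group alone, so their calls are no support. With the length trend removed 4 targets fell, 2 rose and the median was -0.29, and with libraries centred 3 fell and 3 rose. The ligand TGFB2 was at 36.5 and 35.7 TPM in PC9 and 19.6 and 21.1 TPM in PC9-AMG (-0.80, SE 0.13), and BMP4 fell by 0.78 from a mean of 68.2 TPM. BMP7, another ligand, was at 0.402 and 0.37 TPM and at 3.68 and 3.12 TPM. Among the targets TGFBI, a secreted matrix protein named for its induction by TGF-beta, was at 485 and 496 TPM and at 272 and 268 TPM (-0.86, SE 0.08, adjusted p = 0.000609). ID1, an inhibitor of differentiation factors that BMP ligands induce, was at 78.5 and 74.1 TPM and at 40.7 and 40.6 TPM (-0.89, SE 0.12, adjusted p = 0.0028). LTBP2, of the family that stores latent TGF-beta in the matrix, fell by 1.02.

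In the Notch list 2 of 16 genes fell and 2 rose. LFNG, which modifies Notch receptors with sugar and so sets which ligands they answer, was at 13.7 and 12.9 TPM in PC9 and 4.53 and 3.26 TPM in PC9-AMG (-1.56, SE 0.18, adjusted p = 0.00144). The ligand JAG1 was at 29.9 and 31.5 TPM and at 14.7 and 14.8 TPM (-1.01, SE 0.14, adjusted p = 0.00422). Of 25 Wnt genes 4 fell and 1 rose (median -0.26), against 3 falls and 3 rises with libraries centred and 4 falls and 3 rises with the length trend removed. SFRP1, a secreted Wnt antagonist, was at 12.3 and 11.9 TPM and at 5.3 and 4.35 TPM (-1.18, SE 0.16, adjusted p = 0.00304), and the ligand WNT5A fell by 0.91 from a mean of 54.2 TPM. The antagonist DKK1 rose by 0.65 from a mean of 77.7 TPM.

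For the EGFR pathway that drives this line, the receptors were not called and ligands rose. EGFR was at 204 TPM in both PC9 libraries and 188 and 155 TPM in PC9-AMG (-0.25, SE 0.19, adjusted p = 0.440). The PC9-BrM4 libraries, which enter the estimate of the spread, were at 359 and 215 TPM. Of 4 tested genes of the ERBB receptor list 0 were called by limma, and 3 were lower at an unadjusted p under 0.05. The 4 are EGFR, ERBB2, ERBB3 and ERRFI1, the last not itself a receptor (-0.27, adjusted p = 0.119). ERBB2, ERBB3 and MET had differences of -0.46, -0.33 and -0.23 and were not called (adjusted p = 0.0568, 0.0935 and 0.314). Of 8 tested ERBB ligands 3 rose and 0 fell. AREG, which encodes amphiregulin, was at 19.5 and 20.1 TPM and at 36.8 and 46.3 TPM (1.03, SE 0.13, adjusted p = 0.00264), and HBEGF was at 27.2 and 24.1 TPM and at 46.0 and 45.6 TPM (0.81, SE 0.12, adjusted p = 0.00435). Of 18 ERK feedback inhibitors and output genes 2 rose and 1 fell, and of 20 AP-1 and immediate early genes 2 rose and 3 fell. FOS was at 1780 and 1770 TPM and at 1070 and 1100 TPM (-0.71, SE 0.07, adjusted p = 0.000609) and EGR1 fell by 0.64, whereas FOSL1, the AP-1 member FRA1, rose by 0.72 and the ERK phosphatase DUSP5 by 0.58. Among all the signalling genes named, calls ended for EGR1 and DUSP5 without any library but PC9-AMG library 1, for TGFB2 without either PC9 library, for DKK1 without PC9 library 1 or PC9-AMG library 2, for BMP4 without PC9 library 1, and for HBEGF and FOSL1 without PC9 library 2 (adjusted p between 0.0526 and 0.156).

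Inflammatory genes moved in both directions. Of 16 complement and acute-phase genes 3 rose and 2 fell. SERPING1, the inhibitor of the first complement component, was at 0.619 and 1.06 TPM in PC9 and 6.34 and 5.65 TPM in PC9-AMG (1.94, SE 0.22). C3, the central complement protein, was at 77.1 and 80.7 TPM and at 38.8 and 29.9 TPM (-1.19, SE 0.14, adjusted p = 0.00178). The acute-phase genes SAA1 and SAA2 rose by 0.90 and 0.89, and since the copies are nearly identical the split of reads between them is uncertain. Of 29 NF-kappaB targets and chemokines 3 rose and 3 fell. PELI2, an adaptor of toll-like receptor signalling, was at 6.65 and 6.03 TPM and at 1.8 and 1.44 TPM (-1.49, SE 0.22, adjusted p = 0.00486). The inhibitor NFKBIE rose by 0.80, the subunit RELB by 0.54 and the cytokine IL1A by 1.05 from a mean of 1.25 TPM. S100A9, an alarmin made by myeloid and stressed epithelial cells, was at 2.45 and 1.54 TPM and at 9.5 and 11.9 TPM (1.97, SE 0.21, adjusted p = 0.00116). Of 27 interferon-stimulated genes 2 rose and 0 fell, and of 18 genes of antigen presentation 2 fell and 0 rose, among them B2M by 0.33 from a mean of 2710 TPM. The calls of C3, PELI2 and S100A9 held. Those of RELB and IL1A ended without any of the 4 libraries, SAA2 without any but PC9 library 1, B2M without any but PC9-AMG library 2, NFKBIE without PC9 library 1 or PC9-AMG library 1, and SAA1 without PC9-AMG library 2 (adjusted p between 0.0522 and 0.252).

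Some cancer-testis antigens of the X chromosome were higher in PC9-AMG. These genes are normally silent outside the germ line and are often switched on in tumours. Of 47 listed, 13 passed the filter, 6 rose and 0 fell, and a member that passed through PC9-AMG alone had to be higher there, so the count is only a description. XAGE2 (chromosome X, 52369010 to 52375683) was listed at 0 in both PC9 libraries and at 16.7 and 15 TPM in PC9-AMG. MAGEA4 (151912889 to 151925170) was listed at 0 in both PC9 libraries and at 5.2 and 8.68 TPM in PC9-AMG. SPANXB1, of a family expressed in sperm and placed in no list, was at 55.0 and 54.5 TPM and at 179 and 180 TPM (1.70, SE 0.10, adjusted p = 6.53e-05), a call that held. MAGEC1 and MAGEC2 had means of 1.83 and 3.35 TPM in PC9-AMG. MAGEA3 rose by 0.39 from a mean of 178 TPM, a call that ended without any library but PC9-AMG library 1. XAGE2, SPANXB1 and MAGEA3 have near-identical copies, between which reads may have been divided.

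Detoxification genes changed in both directions, and the balance depended on the scaling. Of 37 NRF2 targets and aldo-keto reductases 8 fell and 3 rose (median -0.16), and of 26 aldehyde dehydrogenases, glutathione transferases and drug exporters 5 fell and 1 rose. With libraries centred 3 fell and 2 rose in the first list, and 4 fell and 3 rose in the second. AKR1C2, a reductase of steroids and aldehydes, was at 734 and 720 TPM in PC9 and 452 and 415 TPM in PC9-AMG (-0.74, SE 0.08, adjusted p = 0.00107). ALDH3A1, an aldehyde dehydrogenase, was at 1150 and 1170 TPM and at 821 and 729 TPM (-0.58, SE 0.08, adjusted p = 0.00392), and UGT1A6, which links glucuronic acid to drugs, was at 738 and 743 TPM and at 488 and 517 TPM (-0.56, SE 0.08, adjusted p = 0.00326). AKR1C2 has close copies, and UGT1A6 shares exons with the other genes of its cluster, so how reads were assigned affects both. AKR1B10 fell by 0.48, while OSGIN1, another NRF2 target, rose by 0.79 from a mean of 26.8 TPM. The falls in the NRF2 list numbered 2 without either PC9 library, 4 without PC9-AMG library 1 and 6 without PC9-AMG library 2.

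In lipid handling, 4 of 32 genes of cholesterol synthesis and transport rose and 1 fell. Those rises numbered 0, 0, 1 and 0 without PC9 library 1, PC9 library 2, PC9-AMG library 1 and PC9-AMG library 2. Of 28 genes of fatty acid synthesis and storage 2 rose and 1 fell. APOE, the apolipoprotein that astrocytes also secrete, was at 9.17 and 13.9 TPM in PC9 and 41.9 and 39.7 TPM in PC9-AMG (1.76, SE 0.21, adjusted p = 0.00144). NPC2, which carries cholesterol out of the lysosome, was at 1390 and 1370 TPM and at 849 and 880 TPM (-0.68, SE 0.07, adjusted p = 0.00116). DGAT2, which makes storage fat, rose by 1.03 and SQLE, an enzyme of cholesterol synthesis, by 0.66. Of 32 lysosomal genes 4 fell and 2 rose. CTSA and CTSD, which encode lysosomal proteases, fell by 0.61 and 0.52, and CPVL, a carboxypeptidase, was at 0 and 0.547 TPM and at 3.48 and 5.61 TPM. GLUL, which makes glutamine from glutamate, was at 56.0 and 54.1 TPM and at 31.7 and 33.0 TPM (-0.75, SE 0.11, adjusted p = 0.00463). In detoxification, lipid and lysosomal genes the calls ended for AKR1B10 without any library but PC9-AMG library 2, for SQLE and CTSD without any but PC9-AMG library 1, for OSGIN1, DGAT2 and CTSA without PC9 library 2 and for GLUL without PC9 library 1 (adjusted p between 0.0509 and 0.162).

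The 2 derivatives were also compared with each other. Their differences from PC9 share the PC9 libraries, so the direct comparison is given: 2706 genes, 19.1% of those tested, differed between PC9-AMG and PC9-BrM4. Some of the changes were also called in PC9-BrM4 against the same PC9 libraries, where 2370 genes were called. That is 16.7% of those tested, against 8.68% for PC9-AMG, so counts of the 2 comparisons have unlike backgrounds. NUPR1, KISS1, CHAC1 and AREG were higher there by 3.34, 1.51, 1.47 and 0.98. By list, 9 of 24 genes of ribosome biogenesis, 8 of 19 synthetases and 10 of 24 genes of S phase were higher there and 0 lower. Of 22 hypoxia targets 8 were lower and 1 higher, and of 34 axon guidance genes 11 and 4. The respiratory chain had 2 higher genes of 45, against 12 in PC9-AMG. The genes named next differed between the derivatives. SPANXB1 was at 32.9 and 32.2 TPM in PC9-BrM4, below PC9, and was 2.43 higher in PC9-AMG (adjusted p = 5.42e-07). APOE was at 4.52 and 6.51 TPM there, also below PC9, and was 2.70 higher in PC9-AMG (adjusted p = 2.82e-05). MAGEA4 was listed at 0 in both PC9-BrM4 libraries. VIM, which fell in PC9-AMG, was at 269 and 257 TPM in PC9-BrM4, above PC9 (PC9-AMG minus PC9-BrM4 -1.54, adjusted p = 4.04e-06). SFRP1 was at 55.5 and 45.1 TPM there (-3.13, adjusted p = 1.9e-06) and LTBP2 at 96.3 and 77.2 TPM (-1.87, adjusted p = 3.99e-05), so both lay above PC9 in PC9-BrM4 and below it in PC9-AMG. HSP90AA1 and FOS did the same, with PC9-AMG lower than PC9-BrM4 by 0.99 and 0.97 (adjusted p = 2.69e-05 and 1.47e-05). CEACAM6 was far lower in PC9-BrM4, at 9.98 and 7.63 TPM, than in PC9-AMG (4.36, adjusted p = 2.46e-08), whereas GGT6 at 44.9 and 43.1 TPM and CPVL at 44.1 and 42.6 TPM were higher there than in PC9-AMG (-2.18 and -3.03, adjusted p = 2.69e-05 and 4.04e-05).

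Called genes were spread unevenly over the chromosomes, in hg38 coordinates. On chromosome 14, 55 of 425 tested genes fell and 3 rose (median difference -0.17, and -0.16 and -0.18 in the 2 PC9-AMG libraries against the PC9 mean). Within it the stretch from 60 to 80 Mb had 29 falls and 0 rises among 124 genes (median -0.30). FOS, NPC2, DLST and LTBP2 lie in that stretch, and HIF1A as well. TNFAIP2 (103126327 to 103137439) and HSP90AA1 lie in the stretch from 100 to 120 Mb, which had 13 falls and 1 rise among 52 genes (median -0.17). The part of these stretches in the falls of the genes named was not tested. Chromosome 19 had 74 rises and 21 falls among 1049 genes (median 0.07), with 44 rises and 5 falls among 439 genes from 40 to 60 Mb, where CEACAM5 and CEACAM6 fell and APOE rose. On chromosome 1 the stretch from 40 to 60 Mb had 32 rises and 3 falls among 164 genes (median 0.15), and on chromosome 17 the one from 60 to 80 Mb 22 rises and 2 falls among 171 (median 0.16). The stretches were singled out after their values were seen, and no test was made of them.

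**Figure D5:**
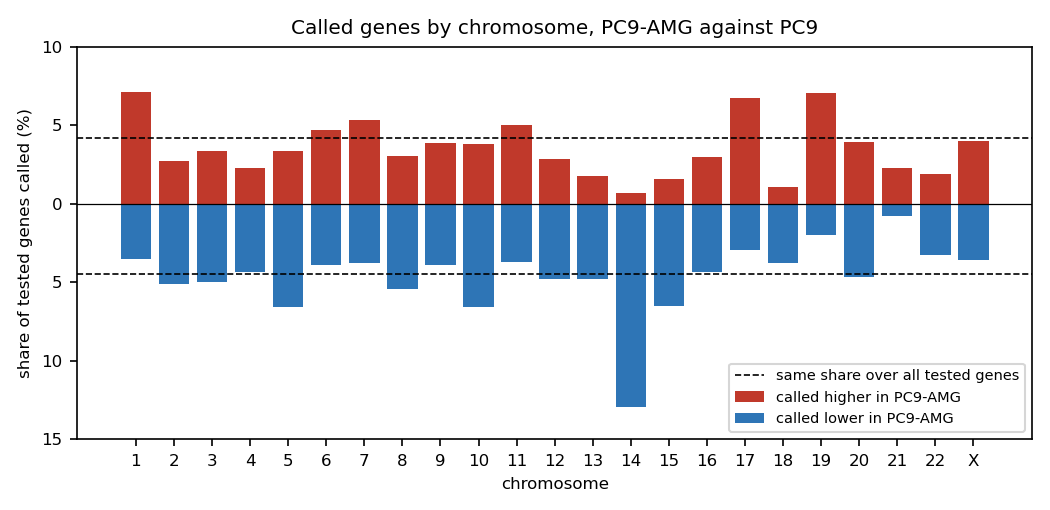
Share of the tested genes of each chromosome (horizontal axis) that rose (above 0) or fell (below 0) in PC9-AMG against PC9, in percent. Dashed lines mark the shares over all tested genes, 4.21% and 4.46%. Chromosome 14 has the tallest bar of falls, 55 of 425 genes.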

How the data were processed

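Per the labels' protocols, RNA was taken up in TRIzol and stranded libraries were prepared with a TruSeq kit for mRNA. Per the submitters' processing notes, the tools were HISAT2 2.1.0 and StringTie 1.3.4d, with build hg38. The annotation is not given in the sources used here. The values used are TPM from the authors' deposited table over all libraries. FPKM from the deposited library tables served as an alternative, and coverage, the mean reads per base per the file headers, only described depth. Without read counts the depth stays unknown. Coverage at 1 TPM was between 0.606 and 0.822, and libraries listed 13791 to 14105 genes at 1 TPM or more. The table equals the library tables, summed over rows of a symbol, within 0.001 TPM for 98.9% of genes; for the others, 114 of them tested and 5 called, values are uncertain.

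Genes reaching 1 TPM in 2 or more of the 4 libraries compared were tested on log2(TPM + 1) with limma 3.58.1 in R 4.3.3. Group means were fitted to all 6 libraries, with moderation and a variance trend (3 residual and 7.49 prior degrees of freedom), two-sided, Benjamini-Hochberg over all tested genes. The fit was tested on simulated data. Between libraries of a group the Pearson correlation across genes was 0.9876 to 0.9904, and between PC9 and PC9-AMG 0.9787 to 0.9809. Transcript lengths came from GENCODE v29 (94.1% of tested genes).

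The comparison and the 63 gene lists were chosen with earlier results of these data known. The text names genes from the 15 largest called rises and 15 largest falls (at least 5 TPM in the higher group, no overlap, no clone, locus, antisense, small-RNA or read-through symbol), up to 6 called members per list, the 2 highest members of a list and fixed genes such as EGFR. Alternatives were other scalings, pseudocounts, filters, moderation, FPKM, length, a block and leaving out libraries. A few genes are not reported here.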

Additional observations from a re-analysis of the deposited data

How the results depend on the processing

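With no filter on low values limma called 284 genes (149 higher, 135 lower), and with moderation without a variance trend 442 (201 higher, 241 lower); 268 and 402 of these were among the 1229. FPKM gave 947 higher genes, and leaving out small-RNA, antisense, clone, locus and read-through symbols gave 971 lower ones. Leaving out 1 library at a time, PC9-BrM4 included, gave 237 to 1483 called genes, 128 to 675 higher and 92 to 810 lower, fewest without a PC9 or PC9-AMG library; the lone library of a group is then assumed to vary like the others. The counts under the remaining alternatives stayed within 1.5 times of the main ones. The replicate numbers did not pair the libraries (correlation of the differences between libraries 1 and 2 of -0.051 between PC9 and PC9-AMG); with the number as a block, 1471 genes were called, 668 higher and 803 lower. HSPA1A, HSPA1B, ITGAM and the genes under other observations were not followed as single genes through all alternatives. No gene of the results that was so followed changed direction under any of the alternatives run. Of the 128 such genes that were called, 56 kept their call without each of the 4 libraries. Genes that kept their call include XAGE2, MAGEA4, SERPING1, C6orf223, BMP7 and CPVL, whose calls are no support because of the filter. With 2 libraries a group and unknown depth, genes near 1 TPM are the least certain.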

Other observations

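Among gene groups not described so far, YAP and TEAD targets, which respond to cell shape and stiffness, had 4 rises and 2 falls among 22 tested (median difference -0.03). ANKRD1 rose by 0.75, TEAD4 by 0.52 and CTGF by 0.42, and F3, the tissue factor that starts clotting, fell by 0.34; the 4 rises were called in none of the fits without 1 PC9 or PC9-AMG library. In desmosomes and tight junctions 2 of 25 genes rose, the claudins CLDN1 by 0.52 and CLDN3 by 0.54, and GJB2, a gap junction protein, fell by 0.76. None of these 3 calls was made in any of the 4 fits without 1 PC9 or PC9-AMG library. PSG5, a gene of the placenta in the same family as CEACAM5, rose by 1.42 while CEACAM5 and CEACAM6 fell, a call made without PC9 library 1 but not without any other of the 4 libraries; its family holds close copies, so the value is uncertain. Among 22 genes of autophagy and 14 replication-dependent histones 0 were called by limma in either direction, and 7 and 4 had an unadjusted p under 0.05.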
